A study of Homo sapiens with 9 samples.

Results

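The FOS, JUN and EGR immediate early genes were followed as 10 genes of the count table, FOS, FOSB, FOSL1, FOSL2, JUN, JUNB, JUND, EGR1, ATF3 and IER2, taken by their symbols. They are 10 of 58735 genes listed, and all 10 were among the 16350 genes with enough counts to be tested. RNA came from SKOV3 cells, a human ovarian cancer cell line, in 3 groups of 3 libraries. The WT group carried WT CDK9 with no inhibitor, the Ai group carried WT CDK9 and had been exposed to an ALK inhibitor for 24 h, and the Y19F group carried Tyr19Phe CDK9, in which tyrosine 19 is replaced by phenylalanine, with no inhibitor. The comparisons set cells with ALK blocked, or with CDK9 lacking the tyrosine that ALK phosphorylates, against WT cells. The paper describes stable lines made to express each form of CDK9. In Y19F, an effect of the mutation therefore cannot be told apart from other differences between separately made cells. The sources used here name neither the inhibitor nor its dose for these libraries, and do not say what the cells without inhibitor received in its place, whether endogenous CDK9 was depleted, or whether the libraries of a group came from separate cultures, so p-values measure only the spread between these libraries.

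Immediate early genes are switched on within minutes of a growth factor or stress signal, without the need for new protein, and their RNAs are short-lived. Signals through MAP kinases reach serum response factor (SRF) with its ETS-family partners on CArG boxes, and CREB-family factors on cAMP response elements, in their promoters. CDK9, as the kinase of P-TEFb, releases the paused RNA polymerase II with which many of these genes are loaded. FOS and JUN proteins pair through leucine zippers to form AP-1, which binds the letters TGACTCA. JUN proteins can also pair with each other, while FOS proteins form AP-1 with a JUN partner. These cells were grown in medium with serum, and no acute stimulus is described for them.

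Total counts ranged from 18939449 to 19731228 in WT, from 18169050 to 20974903 in Ai and from 26485891 to 29320184 in Y19F, so that 3 counts, taken as the floor, corresponded to between 0.102 and 0.165 CPM (counting error only). CPM are counts scaled to the library total, here corrected by TMM, a scaling that equalises the bulk of genes between libraries. Levels are given in CPM in the order of replicates 1 to 3, and in CPM per kilobase of listed gene length (RPKM) where genes are compared with each other. Within their groups, Ai replicate 2 with 19944 genes detected and Y19F replicate 3 with 20635 stood below the others, which had at least 21241. Of 8 epithelial ovarian cancer markers, 7 were tested (MUC16 was not), with summed levels of 5163.5 to 5985.9 CPM per library, whereas 0 of 8 leukocyte, endothelial and fibroblast markers passed the filter and their sum was at most 1.53 CPM. The epithelial markers did not move as a group: in Y19F against WT, KRT19 (log2 fold change -1.24), EPCAM (-0.82) and ERBB2 (-0.29) were called lower and KRT8 (0.38) and KRT18 (0.39) higher, and in Ai KRT7 (-0.35) was called lower and ERBB2 (0.54) and KRT19 (0.21) higher. CDH5, an endothelial cadherin, had 14, 35 and 17 counts in the Y19F libraries, 0 in the WT libraries and at most 1 in the Ai libraries, and PTPRC, the leukocyte marker, had at most 2 counts in any library. The part of these differences in the results on the 10 genes was not tested. The count table does not split CDK9 RNA into introduced and endogenous forms. CDK9 RNA stood at 48.6 ± 1.03 CPM in WT, 45.6 ± 1.77 in Ai and 55.0 ± 3.94 in Y19F (SD, n = 3 each). Its difference from WT did not pass edgeR's quasi-likelihood test with Benjamini-Hochberg adjustment in Ai (adjusted p = 0.666) or Y19F (adjusted p = 0.106), while Y19F lay above Ai by 0.27 on the log2 scale (adjusted p = 0.00961).

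Promoter windows of RefSeq (GRCh38.p14, the 250 bases before the transcript start) were found for 9 of the 10 genes (not FOSL1) and were read for a few known elements on both strands. The windows of EGR1 (chr5:138465229-138465478), FOS (chr14:75278578-75278773), JUNB (chr19:12791236-12791485) and IER2 (chr19:13150161-13150410) are shown, all on the plus strand, because these genes differed between groups in the count data and the printed bases lie outside the annotated genes. Capitals mark CArG boxes and the letters TGACG, the core of a cAMP response element, or CGTCA on the other strand.
EGR1: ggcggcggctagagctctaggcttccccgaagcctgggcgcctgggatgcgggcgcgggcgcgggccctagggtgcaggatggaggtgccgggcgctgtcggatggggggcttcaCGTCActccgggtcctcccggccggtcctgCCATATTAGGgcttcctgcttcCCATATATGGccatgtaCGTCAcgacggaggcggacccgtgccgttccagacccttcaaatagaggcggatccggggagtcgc
FOS: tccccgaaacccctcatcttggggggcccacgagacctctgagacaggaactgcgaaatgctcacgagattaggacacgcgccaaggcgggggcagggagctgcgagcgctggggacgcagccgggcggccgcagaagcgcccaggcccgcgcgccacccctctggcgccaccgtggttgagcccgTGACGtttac
JUNB: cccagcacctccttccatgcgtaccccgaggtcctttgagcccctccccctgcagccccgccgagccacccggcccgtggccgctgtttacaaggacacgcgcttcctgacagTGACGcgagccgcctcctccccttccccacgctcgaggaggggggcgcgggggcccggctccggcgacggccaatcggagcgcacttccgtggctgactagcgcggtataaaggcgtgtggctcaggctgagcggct
IER2: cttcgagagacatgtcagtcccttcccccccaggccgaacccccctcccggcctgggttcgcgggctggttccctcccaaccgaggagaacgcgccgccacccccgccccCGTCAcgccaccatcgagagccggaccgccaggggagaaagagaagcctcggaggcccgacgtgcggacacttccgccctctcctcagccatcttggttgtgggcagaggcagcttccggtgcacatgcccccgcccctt
The EGR1 window held CArG boxes at 105 and 83 bases before the RefSeq start and core sites at 135 and 66 bases before it. FOS held a core site at 64 bases and a TATAAA at 33 bases before its start, the latter outside the printed bases. JUNB held a core site at 137, a CCAAT at 67 and a TATAAA at 31 bases before its start, and IER2 a core site at 140. No CArG box was found in these windows of FOS, JUNB and IER2, and bases further upstream, where such boxes can also lie, were not searched. Of 35116 RefSeq windows of this kind, 1.16% held a CArG box, 21.2% the letters TGACG, 10.7% TATAAA and 32.0% CCAAT. The full element TGACGTCA, which contains a core site on each strand, was in 1.65% of windows and among these genes in JUND, at 200 bases before its start. A match describes letters, and binding was not measured.

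Per length, the 10 genes spanned a wide range in WT cells. The order between genes rests on 1 listed length per gene, and the length of the transcripts expressed in these cells was not measured. FOSL1, the FOS relative with no transactivation domain that is a mainstay of AP-1 in many carcinomas, was the highest at 122.94 ± 4.18 RPKM (SD, n = 3), above 98.6% of tested genes. JUN followed at 111.53 ± 4.61, JUND, the JUN relative least dependent on stimulation, at 77.8 ± 2.42, FOSL2 at 50.8 ± 0.748 and JUNB at 39.2 ± 4.23 RPKM. The libraries of each of these 5 genes did not overlap with those of the next in the order. EGR1, a zinc finger factor, at 10.9 ± 1.57 RPKM and IER2, a small nuclear protein of the early response, at 10.2 ± 1.03 overlapped. ATF3, a stress-induced bZIP factor, stood at 2.00 ± 0.279. FOS at 0.718 ± 0.345 and FOSB at 0.493 ± 0.136 RPKM overlapped and closed the order, with FOSB above 16.1% of tested genes. In Ai and Y19F, JUNB stood above FOSL2 (54.1 ± 2.40 against 50.03 ± 1.07 RPKM in Ai, 46.6 ± 1.69 against 42.6 ± 0.526 in Y19F) and IER2 above EGR1 (13.5 ± 1.17 against 8.65 ± 1.56 in Ai, 13.2 ± 1.47 against 6.21 ± 0.828 in Y19F), in each case without overlap. In Y19F, FOSL1 at 128.65 ± 7.82 and JUN at 120.35 ± 1.35 RPKM overlapped.

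**Figure D1:**
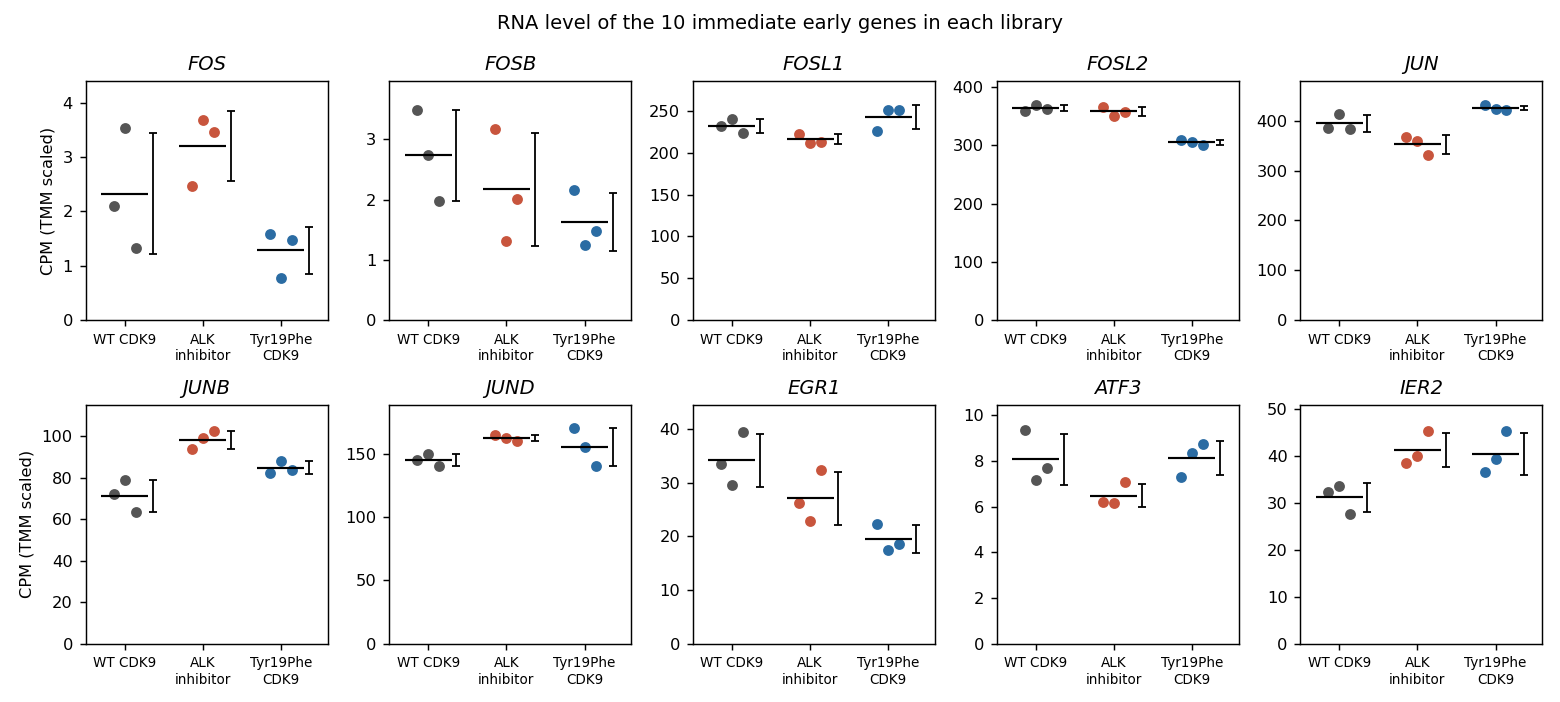
RNA level of each of the 10 genes in CPM (y axis, TMM scaled, from 0, a separate scale for each gene) in the WT CDK9, ALK inhibitor and Tyr19Phe CDK9 libraries, with points for libraries, horizontal lines for group means and bars for the SD (n = 3). For EGR1 the Y19F libraries lie between 17.4 and 22.4 CPM, below all WT libraries, and for JUNB the Ai libraries lie between 93.7 and 102 CPM, above all others.

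After 24 h of ALK inhibition, JUNB and IER2 rose and JUN fell, while the other 7 genes did not pass the test. Among all tested genes, 2.73% were called lower and 1.82% higher in this comparison at an adjusted p under 0.05. The 3 genes of 10 exceed these shares together, with no test of the excess. The 10 genes were chosen with earlier results of these data known, so an excess may be built in by the choice. With library size as the only scaling, the calls over all genes turned from 447 lower and 297 higher to 344 lower and 406 higher. The median log2 fold change was -0.062 for the 10 genes and -0.001 for all tested genes. All Ai libraries were below all WT libraries in 10.3% of tested genes and above them in 9.31%, against 3 and 3 of the 10 genes. In bulk RNA, fewer cells that express a gene and less RNA per cell cannot be told apart.

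JUNB, a JUN relative that pairs with FOS proteins and often counteracts JUN, had the smallest adjusted p of the 10 genes in this comparison. WT libraries stood at 72.0, 78.7 and 63.3 CPM and Ai libraries at 93.7, 99.0 and 102 CPM. Every Ai library was above every WT library. The log2 fold change was 0.46 ± 0.07 (SE), a 1.38-fold higher level (edgeR quasi-likelihood test, Benjamini-Hochberg adjusted p = 2.1e-05), and JUNB was called under all 19 other settings, with each library left out in turn among them (0.39 to 0.54 on the log2 scale). JUNB is a gene of 1 exon at chr19:12791496-12793315 and lies on the opposite strand within the span of HOOK2, with 14.2% of its exon bases shared. The strand setting of the counting is not given in the sources used here. HOOK2 itself differed by 0.08 ± 0.10 on the log2 scale (SE, adjusted p = 0.787).

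IER2 stood at 32.3, 33.7 and 27.7 CPM in WT and at 38.6, 40.1 and 45.4 CPM in Ai. These groups did not overlap, and the log2 fold change was 0.41 ± 0.10 (SE, adjusted p = 0.00968 by edgeR's quasi-likelihood test). The call was lost without WT replicate 3 (adjusted p = 0.0831) and without Ai replicate 3 (0.103), at 0.33 or more on the log2 scale in every such fit. IER2 lies 357 kb from JUNB on chromosome 19, at chr19:13150415-13154908, and an antisense gene that covers 30.7% of its exon bases had 0 counts in all libraries.

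JUN, the transactivating partner in most AP-1 dimers, stood at 386, 414 and 384 CPM in WT and at 368, 359 and 332 CPM in Ai. All Ai libraries were below all WT libraries, though by a small margin. The log2 fold change was -0.16 ± 0.04 (SE, adjusted p = 0.0194 by edgeR's quasi-likelihood test). The call was lost in 4 of the 19 other settings, with an adjusted p of 0.151 without WT replicate 2, 0.191 without Ai replicate 3, 0.0599 with library size as the only scaling and 0.0567 without both Ai replicate 2 and Y19F replicate 3, the libraries with the fewest genes detected in their groups. JUN is a gene of 1 exon on the minus strand at chr1:58780788-58784327.

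Among the genes that did not pass, FOSL1 stood at 212 to 223 CPM in Ai against 224 to 240 in WT, without overlap, but its log2 fold change of -0.10 had an adjusted p of 0.292 by edgeR's quasi-likelihood test. JUND was at 160 to 165 CPM in Ai against 141 to 150 in WT, with 0.16 ± 0.06 on the log2 scale (SE, adjusted p = 0.0999), and was called in 4 of the other settings. EGR1 stood at 33.6, 29.6 and 39.4 CPM in WT and at 26.2, 22.8 and 32.5 CPM in Ai, groups that overlapped, with -0.33 ± 0.12 (SE, adjusted p = 0.143). Without Ai replicate 3, the highest of its group, the EGR1 difference was -0.48 with an adjusted p of 0.0399. ATF3 differed by -0.32 ± 0.18 (adjusted p = 0.433) and FOSL2 by -0.02 (adjusted p = 0.876, 95% interval from -0.10 to 0.06). FOS and FOSB, with 24 to 68 counts per WT or Ai library, differed by 0.46 ± 0.39 and -0.33 ± 0.39 (SE, adjusted p = 0.669 and 0.789), with intervals that reached from -0.33 to 1.25 and from -1.12 to 0.46. At this depth both intervals reach past a 2-fold difference. FOSB also shares 7185 bases with ERCC1 on the opposite strand, of which 0 are exon bases of both genes. ERCC1 had 9593 counts in total, and the part of its reads in the FOSB counts was not tested.

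In Tyr19Phe CDK9 cells, EGR1 and FOSL2 were lower and JUNB and IER2 higher than in WT CDK9 cells. The background shares in this comparison were 10.4% of tested genes for lower calls and 7.61% for higher calls. The 4 genes of 10 exceed these shares together, again with no test of the excess. The same limit from the choice of the 10 genes holds here. The median log2 fold change was 0.036 for the 10 genes and 0.0035 for all tested genes. All Y19F libraries were below all WT libraries in 17.2% of tested genes and above them in 15.4%, against 2 and 3 of the 10 genes. The other 6 genes did not pass the test.

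EGR1, whose product binds GC-rich promoters and is held in check by the NAB corepressors, had the largest difference among the called genes. The Y19F libraries stood at 22.4, 17.4 and 18.6 CPM against 33.6, 29.6 and 39.4 CPM in WT. All Y19F libraries were below all WT libraries. The log2 fold change was -0.81 ± 0.12 (SE), that is 0.571 times the WT level (edgeR quasi-likelihood test, Benjamini-Hochberg adjusted p = 8.2e-06). With each library left out in turn it ranged from -0.92 to -0.69 and was called each time. EGR1 is a gene of 2 exons at chr5:138465490-138469315 that overlaps no annotated gene. The 135 tested genes within 5 Mb of it had a median log2 fold change of 0.008.

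FOSL2, a FOS relative that like FOSL1 persists after induction has passed, showed a small difference with little spread. Its levels were 359, 370 and 362 CPM in WT and 309, 305 and 301 CPM in Y19F. The groups lay far apart relative to their spread, with a log2 fold change of -0.25 ± 0.04 (SE, adjusted p = 9e-06 by edgeR's quasi-likelihood test), 0.839 times the WT level. This call was made under all 19 other settings. FOSL2 (chr2:28392448-28417312, 4 exons) shares no exon base with the 2 non-coding genes annotated within it, and the 88 tested genes within 5 Mb had a median of 0.014.

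JUNB stood at 82.5, 88.3 and 83.7 CPM in Y19F, above all WT libraries. Its log2 fold change was 0.25 ± 0.07 (SE, adjusted p = 0.00893 by edgeR's quasi-likelihood test), which was not called without WT replicate 3 (adjusted p = 0.109). HOOK2 differed by -0.06 (adjusted p = 0.754). For IER2 the Y19F libraries stood at 36.6, 39.4 and 45.5 CPM, again above all WT libraries, with 0.37 ± 0.10 (SE, adjusted p = 0.00553). The IER2 call was lost without WT replicate 3 (adjusted p = 0.0543), without Y19F replicate 3 (0.0604) and without both libraries of few detected genes (0.0577). The tested genes within 5 Mb, 241 for JUNB and 237 for IER2 in windows that largely coincide, had medians of 0.061 and 0.064 in this comparison, and 12.4% and 12.7% of them were called higher against 7.61% of all tested genes. In Ai against WT these windows had medians of -0.035 and -0.026, with 1.66% and 1.69% called higher against 1.82% of all tested genes. In Y19F against Ai, where JUNB was lower, its window had a median of 0.097, with 17.8% called higher and 8.3% lower. Whether these neighbourhoods play a part in the JUNB and IER2 differences was not tested. Without WT replicate 3, the lowest WT library for both genes, 2 of the 10 genes were called in place of 4.

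JUN stood at 431, 424 and 422 CPM in Y19F, above the WT libraries at 384 to 414. Its log2 fold change of 0.11 ± 0.04 (SE) had an adjusted p of 0.0672 by edgeR's quasi-likelihood test and passed the threshold in 8 of the 19 other settings. FOS was at 1.59, 0.783 and 1.47 CPM in Y19F and at 2.10, 3.54 and 1.34 in WT, which overlapped, with -0.86 ± 0.40 (SE, adjusted p = 0.149). FOSB, at 1.25 to 2.17 CPM in Y19F and 1.98 to 3.49 in WT, also overlapped and differed by -0.75 ± 0.39 (adjusted p = 0.204). FOSL1 differed by 0.07 (adjusted p = 0.395, 95% interval from -0.03 to 0.16) and JUND by 0.10 (adjusted p = 0.25), JUND having a wide spread in Y19F, from 140 to 170 CPM. JUND was called without Y19F replicate 3, its lowest library (0.17, adjusted p = 0.0347). ATF3 differed by 0.01 (adjusted p = 0.985, interval from -0.35 to 0.36).

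**Figure D2:**
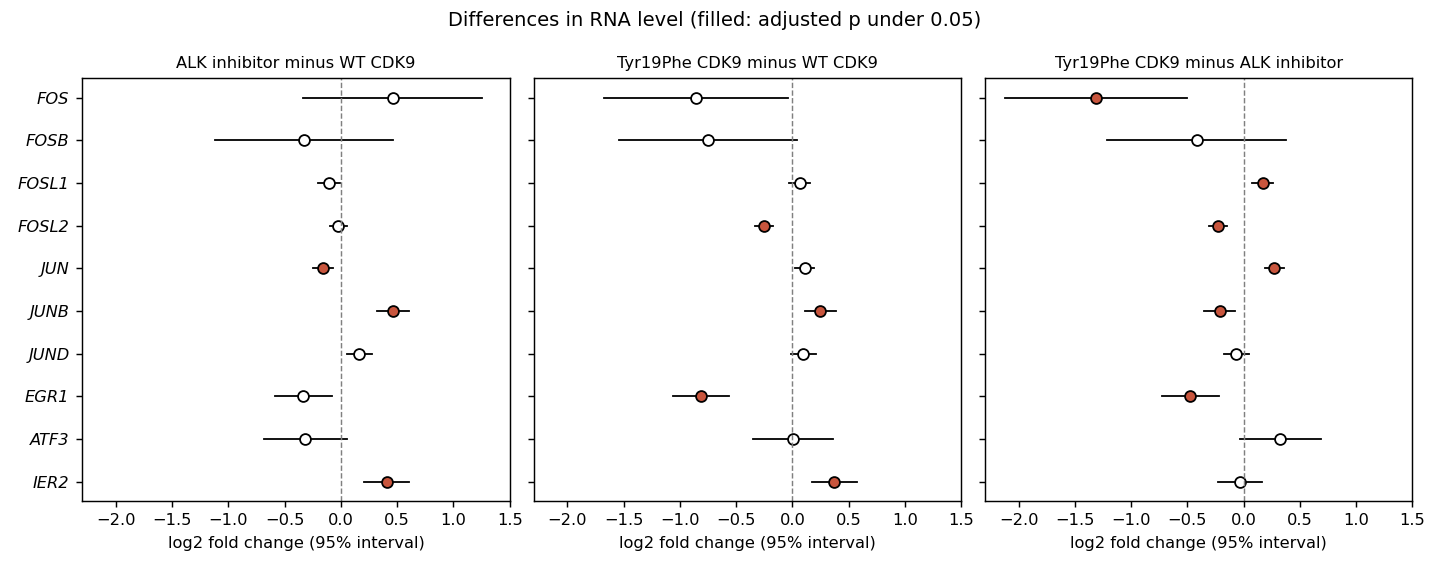
Log2 fold changes (x axis) of the 10 genes in the 3 comparisons with their 95% intervals, filled where the adjusted p was under 0.05. JUNB and IER2 lie to the right in both comparisons with WT, EGR1 lies furthest to the left of the filled points in the Tyr19Phe comparison with WT, and FOS and FOSB have the widest intervals.

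The direct comparison of the Y19F with the Ai libraries called FOS, FOSL2, JUNB and EGR1 lower and FOSL1 and JUN higher in Y19F. Over all tested genes, 11.1% were lower and 9.57% higher. The medians were -0.14 for the 10 genes and 0.0018 for all tested genes. All Y19F libraries were below all Ai libraries in 17.7% of tested genes and above them in 16.7%, against 4 and 3 of the 10 genes.

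JUN, from 332 to 368 CPM in Ai and from 422 to 431 in Y19F, with WT between them and no overlap among the 3 groups, was higher in Y19F than in Ai by 0.27 ± 0.04 on the log2 scale (SE, edgeR quasi-likelihood test, Benjamini-Hochberg adjusted p = 1e-05). FOSL2 was lower by 0.23 ± 0.04 in size (log2 fold change -0.23, adjusted p = 3.1e-05). Both calls were made under all 19 other settings. Of the 88 tested genes within 5 Mb of FOSL2, 18.2% were called lower and 4.55% higher in Y19F than in Ai, against 11.1% and 9.57% of all tested genes. Of the 45 around JUN, 17.8% were called lower and 4.44% higher. The part of these neighbourhoods was not tested. EGR1 differed by -0.48 ± 0.12 (adjusted p = 0.00513), with the highest Y19F library at 22.4 and the lowest Ai library at 22.8 CPM, and was not called without Ai replicate 3 (adjusted p = 0.0949).

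FOS had the largest difference of the 10 genes between these groups. It stood at 2.47, 3.68 and 3.46 CPM in Ai, from 52 to 67 counts, and at 1.59, 0.783 and 1.47 CPM in Y19F, from 22 to 47 counts. These groups did not overlap, while the WT libraries, at 1.34 to 3.54 CPM, overlapped both. The log2 fold change was -1.31 ± 0.40 (SE, adjusted p = 0.0159 by edgeR's quasi-likelihood test). The call was lost without Ai replicate 2, Ai replicate 3 or Y19F replicate 2 (adjusted p = 0.0557, 0.0548 and 0.0868). The 88 tested genes within 5 Mb of FOS (chr14:75278774-75282230) were also lower in Y19F, with a median of -0.21 on the log2 scale and 27.3% of them called lower against 11.1% of all tested genes. Their median against WT was -0.16, with 20.5% called lower. Whether the neighbourhood plays a part in the FOS difference was not tested.

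FOSL1 was higher in Y19F than in Ai by 0.17 ± 0.05 (SE, adjusted p = 0.00939 by edgeR's quasi-likelihood test) and was not called without Y19F replicate 2 (0.0564) or Y19F replicate 3 (0.0538). Of the 234 tested genes within 5 Mb of FOSL1, 17.9% were called higher in Y19F than in Ai, against 9.57% of all tested genes, and the part of this was likewise not tested. JUNB, called higher than WT in both groups, was lower in Y19F than in Ai by 0.21 in size (log2 fold change -0.21 ± 0.07, adjusted p = 0.0219), a call lost without Ai replicate 2, Ai replicate 3, Y19F replicate 1 or Y19F replicate 3 (adjusted p from 0.0604 to 0.115). Without both libraries of few detected genes, 3 of the 10 genes were called (EGR1, FOSL2 and JUN) in place of 6, and without Ai replicate 3 likewise 3 (FOSL1, FOSL2 and JUN). IER2 differed by -0.03 (adjusted p = 0.862, 95% interval from -0.23 to 0.16) and JUND by -0.07 (adjusted p = 0.454, interval from -0.18 to 0.05).

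Within the families, levels per length can be added, since AP-1 draws on both pools. FOSL1 made up 70.3 ± 0.358% of FOS family RNA in WT, 69.0 ± 0.226% in Ai and 74.8 ± 1.44% in Y19F (SD, n = 3 each), and FOSL2 29.0 ± 0.571%, 30.2 ± 0.182% and 24.8 ± 1.33%. The Y19F libraries, at 73.1% to 75.7% FOSL1, did not overlap with the others. FOS held 0.407 ± 0.184%, 0.599 ± 0.134% and 0.232 ± 0.0848% and FOSB less, so that the family pool was nearly all FOSL1 and FOSL2. The pool summed to 175 ± 5.18 RPKM in WT, 166 ± 4.17 in Ai and 172 ± 7.22 in Y19F. In the JUN family, JUN made up 48.8 ± 0.723%, 41.4 ± 1.49% and 48.1 ± 1.28% and JUNB 17.1 ± 1.08%, 22.4 ± 1.36% and 18.6 ± 0.955% in WT, Ai and Y19F. The Ai libraries thus held the lowest JUN and the highest JUNB shares, without overlap with the other groups. The sum was 229 ± 10.9, 241 ± 4.29 and 250.2 ± 8.99 RPKM. These shares are a description with no test of their own.

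**Figure D3:**
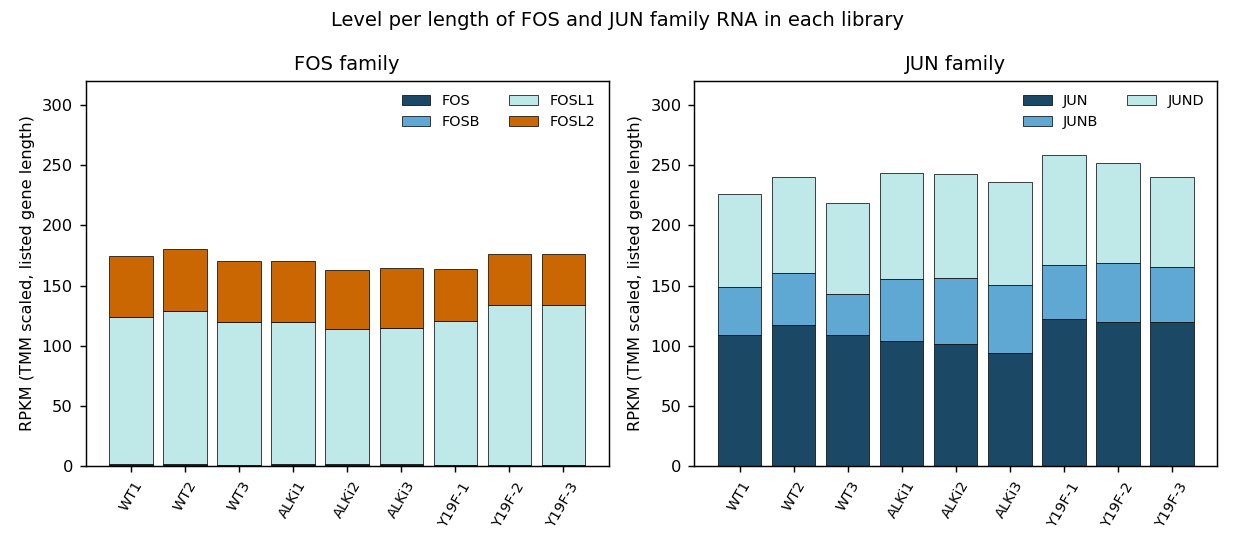
Level per length (y axis, RPKM, from 0) of FOS family and JUN family RNA in each library, stacked by gene, with ALKi for the Ai libraries. FOSL1 and FOSL2 fill nearly all of the left bars, with FOSL2 shortest in Y19F, and JUNB is tallest in the Ai bars on the right.

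The wider pathway was described from lists of genes grouped by role, with the same fit over all tested genes. Each count stands beside the share of all tested genes called in that direction. The lists were chosen with earlier results of these data known, so a count above that share may be built in by the choice. Of 47 other immediate early genes, 42 were tested, while EGR2, EGR3, EGR4, ARC and NPAS4 had too few counts. In Ai, 4 fell and 4 rose (2.73% and 1.82% of all tested genes), with a median log2 fold change of 0.01. CCN1 (CYR61 in the table), a matricellular protein gene that responds to serum and to YAP, was lower by 0.50 in size (log2 fold change -0.50, edgeR quasi-likelihood test, adjusted p = 3.7e-10). CCN2 (CTGF), its relative, had -0.32 (adjusted p = 2.5e-05), HBEGF, an EGFR ligand, -0.57 (adjusted p = 0.000116) and F3, tissue factor, -0.22 (adjusted p = 6.1e-05). In Y19F, 6 fell and 12 rose (10.4% and 7.61% of all tested genes), with a median of 0.05. CCN1 and CCN2 were lower here too (-0.35 and -0.40, adjusted p = 2.2e-07 and 1.7e-07), as was DUSP5, a nuclear phosphatase of ERK, at -0.77 (29.7 ± 0.927 CPM against 50.6 ± 3.60 in WT, adjusted p = 2.1e-08). KLF6, a zinc finger factor, rose by 0.43 (adjusted p = 1.8e-08).

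Of 29 dimer partners and related bZIP factors, 24 were tested. In Ai, 0 of them passed edgeR's test, 3 had an unadjusted p under 0.05 and 1 passed DESeq2, with a median log2 fold change of 0.067. In Y19F, 3 fell and 2 rose, with a median of 0.057, a share close to that of all tested genes (10.4% and 7.61%), so the counts show nothing particular to these factors. ATF4, a stress-response factor that can pair with FOS and JUN proteins, was higher by 0.29 (adjusted p = 4.8e-05 by edgeR's quasi-likelihood test). ATF5 (-0.32, adjusted p = 0.00221), BACH1 (-0.34, adjusted p = 0.00213), which pairs with small MAF proteins, and JDP2 (-0.34, adjusted p = 0.0063), which pairs with JUN to repress AP-1 sites, were lower.

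All 46 upstream regulators and corepressors were tested. In Ai, 3 fell and 1 rose (2.73% and 1.82% of all tested genes), with a median log2 fold change of -0.033. ELK3, an SRF partner of the ETS family, was the 1 that rose, from 99.4 ± 1.55 CPM in WT to 134.2 ± 8.12 in Ai (0.43, adjusted p = 3.2e-06 by edgeR's quasi-likelihood test). ETS2 (-0.30, adjusted p = 0.00023), KHSRP (-0.19, adjusted p = 0.00191), which promotes decay of AU-rich RNAs, and MAP3K1 (-0.42, adjusted p = 0.00318), a kinase above JNK, fell. In Y19F, 9 fell and 4 rose (10.4% and 7.61% of all tested genes), with a median of -0.079. ELK3 (0.39, adjusted p = 5.4e-06) and ETS2 (-0.28, adjusted p = 0.000162) had the same sign as in Ai. The kinases of the RSK family were split, with RPS6KA2 at 0.74 (adjusted p = 7.3e-06) and RPS6KA1 at -0.39 (adjusted p = 8.1e-06). RPS6KA3, outside the naming rule, was also lower (-0.26, edgeR adjusted p = 0.0037).

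Of 43 genes described as AP-1 regulated, 36 were tested, and calls went both ways. In Ai, 6 fell and 11 rose (2.73% and 1.82% of all tested genes), with a median log2 fold change of 0.121. KRT80 (-0.43, adjusted p = 5.8e-09 by edgeR's quasi-likelihood test) and EZR, the membrane linker ezrin (-0.29, adjusted p = 2.2e-08), fell, and FN1, fibronectin (0.30, adjusted p = 4.8e-07), and GJA1, connexin 43 (0.47, adjusted p = 2.25e-06), rose. In Y19F, 7 fell and 12 rose (10.4% and 7.61% of all tested genes), with a median of 0.131. No list was tested as a set. MT2A, a metallothionein, rose from 326 ± 29.6 to 551 ± 17.2 CPM (0.76, adjusted p = 1.6e-13), as did GJA1 (0.85, adjusted p = 2.4e-12) and VIM, vimentin (0.38, adjusted p = 5.9e-11), while EGFR fell from 629 ± 16.2 to 423 ± 15.1 CPM (-0.57, adjusted p = 3.4e-13). The comparisons share the WT libraries, so their values for a gene are not independent.

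**Figure D4:**
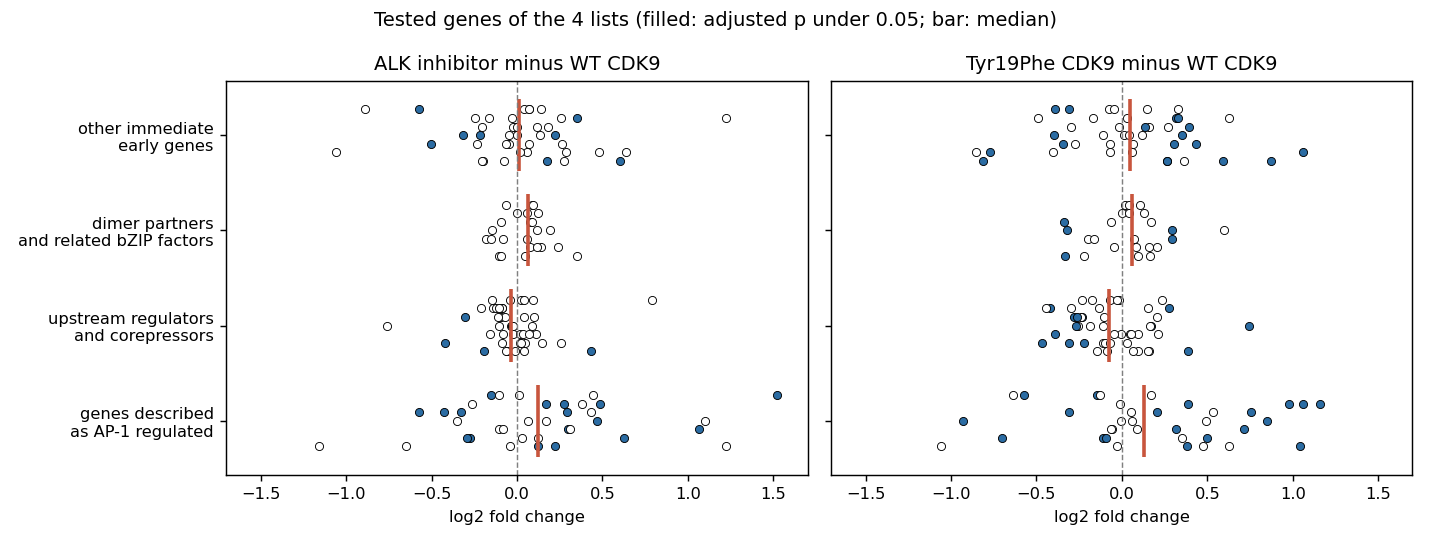
Log2 fold changes (x axis) of the tested genes of the 4 lists against WT, left for the ALK inhibitor and right for Tyr19Phe CDK9, filled where the adjusted p was under 0.05, with a bar at the median. Medians lie between -0.079 and 0.131 and every list with calls has them on both sides of 0.

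Genes whose levels ran most alike over the 9 libraries were found for FOS, EGR1, FOSL1 and JUN as a description. The libraries form 3 groups, and the closest genes were picked out of all those tested with a mean of at least 1 CPM, so high correlations are built in. HDAC2, a histone deacetylase, was closest to EGR1 (Pearson r = 0.984 of log2 CPM, n = 9), at 222, 215 and 223 CPM in WT, 207, 205 and 220 in Ai and 206, 192 and 197 in Y19F. The next were ZNF148 (0.962) and TENM3 (0.959). UBL3 (0.957), TBC1D5 (0.949) and EXD2 (0.944) were closest to FOS, PPP1R37 (0.972), RUVBL2 (0.958) and DPH2 (0.953) to FOSL1, and NCLN (0.977), LPCAT1 (0.976) and LRRFIP2 (0.969) to JUN.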

How the data were processed

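Total RNA of 9 SKOV3 libraries was sequenced by a company, and the authors mapped the reads to hg38. The submitters' processing notes name CASAVA, HISAT2 2.0.5 and featureCounts 1.5.0-p3, while the annotation release and strand setting are not given in the sources used here. The deposited table holds raw counts of reads per gene and library, with gene positions and lengths, which the text uses on GRCh38. Groups and replicate numbers came from the labels, which give no batch. The members and lists were chosen with earlier results of these data known. Genes passed filterByExpr (minimum count 10, minimum total 15). Libraries were scaled by TMM, and edgeR 4.0.16 in R 4.3.3 (with limma 3.58.1) fitted 1 mean per group to all 9 libraries by quasi-likelihood (6 residual degrees of freedom), with Benjamini-Hochberg adjustment over 16350 genes and calls at an adjusted p under 0.05. Log2 CPM used a prior count of 2. The code was tested on simulated counts. Named genes were the 10 members, up to 4 called genes with the smallest adjusted p per list and comparison with WT, and the 3 genes most like each of FOS, EGR1, FOSL1 and JUN. Alternatives were other scalings, DESeq2 1.42.0, other filters, a replicate block, removal of a GC and length trend, the compared groups alone, thinning to the smallest total and each library left out in turn, to which removal of both libraries with few detected genes was added after seeing the data. Promoter windows were searched, and figures drawn, in Python 3.11.15 (pandas 2.3.3, numpy 2.4.6, matplotlib 3.10.9).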

Additional observations from a re-analysis of the deposited data

How the results depend on the processing

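Genes of 10 called with a library left out in turn were 2 to 3 (Ai against WT, main value 3), 2 to 5 (Y19F against WT, main value 4) and 3 to 6 (Y19F against Ai, main value 6). Without both libraries with few detected genes, 3 were called in the last comparison. The EGR1 and FOSL2 calls in Y19F against WT, the JUNB call in Ai against WT and the JUN and FOSL2 calls in Y19F against Ai held in all 19 alternatives. Other immediate early genes called in Ai ranged from 5 to 8 with a library left out (main value 8). Of the bZIP factors, 1 was called in Ai with library size alone and 1 with DESeq2, and 0 to 1 with a library left out (main value 0). Values near 0 changed sign: FOSL2 in Ai was 0.0039 with library size alone, ATF3 in Y19F against WT -0.0231 with the GC and length trend removed, -0.0214 with this and the replicate block, -0.0433 without both libraries and -0.0665 to 0.1293 with a library left out, and in Y19F against Ai JUND was 0.0037 without both libraries and -0.1375 to 0.0048 with a library left out, and IER2 -0.1192 to 0.041. The cause of these changes was not tested. Same-numbered libraries did not deviate together (correlations from -0.0116 to 0.026). This does not settle whether the numbers pair them, since differently numbered libraries were not compared. With the replicate block, 3, 5 and 6 of the 10 genes were called, JUN against WT being the gene added in Y19F (0.11, edgeR adjusted p = 0.0445), and the calls over all genes became 494 lower and 324 higher in Ai and 1758 lower and 1318 higher in Y19F. FOS and FOSB, with 22 to 68 counts per library, are limited by depth, and the part of ERCC1 reads in the FOSB counts was not tested.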

Other observations

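Some list genes outside the naming rule, chosen after their values were seen, showed further differences among immediate early genes and their regulators. NAB2, the corepressor that EGR1 induces and that in turn restrains it, had 26.6 ± 4.43 CPM in Y19F against 36.8 ± 5.30 in WT and 40.7 ± 4.44 in Ai (SD, n = 3 each), a log2 fold change of -0.47 ± 0.11 (SE, edgeR adjusted p = 0.00303) against WT, with groups that overlapped, and of -0.61 ± 0.11 (adjusted p = 0.000121) against Ai. NR4A1, a nuclear receptor of the early response, had 4.63 ± 0.588 CPM in Y19F against 8.12 ± 1.14 in WT (-0.81 ± 0.20, edgeR adjusted p = 0.00324). KLF4 and KLF2, both zinc finger factors, were higher in Y19F than in WT by 1.06 ± 0.15 (edgeR adjusted p = 3.4e-06) and 0.87 ± 0.17 (adjusted p = 0.000255). In Ai against WT, KLF2 was higher too (0.60 ± 0.17, adjusted p = 0.0357), while KLF4 had 0.48 ± 0.16 without overlap of the groups (adjusted p = 0.0782). MT2A was lower in Ai (-0.33, adjusted p = 2.2e-05) and higher in Y19F (0.76, adjusted p = 1.6e-13), with 1.09 ± 0.05 between these groups (adjusted p = 2.7e-17). IL11, a cytokine with AP-1 sites in its promoter, was higher in Ai than in WT by 1.52 ± 0.31 (adjusted p = 0.00191) and lower in Y19F than in Ai (-2.16 ± 0.32, adjusted p = 4.5e-06).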
